A study of Mus musculus with 10 samples.

Results

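The genes described here encode the enzymes of glycolysis and of the pentose phosphate pathway, with the transporters and regulators that feed and drain them. They were chosen by name, as the rows of the deposited table whose symbol is on a list of 41 genes. That list was drawn up with earlier results of these data known. All 41 were found among the table's 23420 rows, and 39 passed a filter on low values and were tested. The samples were CD4+ T cells that switched on an IL-22 reporter in culture, from 10-week-old C57BL/6 mice. In the Riok2hKO group (5 libraries, Riok2f/+ Vav1cre/+ Il22tdtomato/+) 1 copy of Riok2, which encodes an atypical kinase of ribosome assembly, was floxed and Cre was driven by Vav1, which is active in blood-lineage cells. The WT group (5 libraries) was Riok2+/+ Vav1cre/+ Il22tdtomato/+, so cells of both groups carried Cre and the Il22 reporter. Naive cells from spleen were stimulated with anti-CD3 and anti-CD28 and cultured in IL-6 (30 ng/mL), IL-23 and IL-1β (20 ng/mL for either), 400 nM of the aryl hydrocarbon receptor ligand FICZ, and antibodies to IL-4 and interferon gamma, and 5000 reporter-positive cells were sorted for each library. The comparison asks whether loss of 1 copy of Riok2 alters the messages for carbohydrate breakdown in these cells.

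Glycolysis splits glucose into pyruvate and gains ATP and NADH on the way. Activated T cells typically take up much glucose and turn most of the pyruvate into lactate, which regenerates the NAD+ that glycolysis needs, and they export it. The pentose phosphate pathway branches off after the first phosphorylation: its oxidative arm makes NADPH, and its non-oxidative arm interconverts sugar phosphates, among them the ribose phosphate used for nucleotides. Many genes of the set are known targets of the transcription factors HIF-1 and MYC.

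Levels are TPM, a length-corrected share of transcripts that sums to 1000000 in each library, given as mean ± SD of 5 libraries; the number of reads behind them is unknown. Nothing in the labels ties a library to a mouse or culture of its own, so p-values measure only how these libraries spread, which may be technical. Riok2 had 14.5, 12.04, 13.4, 12.2 and 16.2 TPM in Riok2hKO libraries and 29.9, 29.1, 26.1, 27.3 and 29.1 TPM in WT libraries, so the mean in Riok2hKO was 48.3% of that in WT (exact permutation p = 0.00794, the smallest possible with 5 against 5, two-sided). The lowest Pearson's r between 2 libraries, across genes on the log2 scale, was 0.983. WT replicate 1 stood apart from the other WT libraries, with 122 genes at least 1 log2 unit below their mean and 11 at least 1 above. Of the T cell markers, Cd3d, Cd3e, Cd3g and Cd4 measured at least 150.8 TPM in every library, and Cd3d and Cd3g were lower in Riok2hKO (log2 fold change -0.20 and -0.21). The markers of B cells, myeloid cells, NK cells and erythroid cells summed to at most 0.58, 0.41, 0.08 and 1.05 TPM in any library, with Klra8 and Hba-a2 at 0 throughout. The myeloid marker Adgre1 and the erythroid markers Hbb-bs and Hbb-bt had no row, so these sums leave them out. The 2 CD8 markers summed to 11.5 to 14.8 TPM in Riok2hKO and 17.5 to 19.6 TPM in WT, nearly all of it Cd8b1, while Cd8a, the chain that defines CD8 T cells, was at most 0.48 TPM. These differences moved with genotype and their part in the results below was not tested. In sorted bulk samples fewer cells of a kind and less RNA per cell cannot be told apart.

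To show what lies in front of these genes, the 250 bases before the annotated start are printed for the gene with the smallest p (Hk2), for the lactate exporter that rose (Slc16a3), for the abundant lactate dehydrogenase gene that did not pass the test (the first of the 2 windows of Ldha) and for its relative that fell (Ldhb). The sequences are RefSeq's on the GRCm38.p6 build, 5′ to 3′ on the strand of the gene. Capitals mark the E-box CACGTG, a site bound by MYC and related factors, and the cores ACGTG and GCGTG of the hypoxia response element, each searched on both strands, so that an E-box is also 2 matches to ACGTG.
Hk2 (chr6:82774455-82774704, minus strand): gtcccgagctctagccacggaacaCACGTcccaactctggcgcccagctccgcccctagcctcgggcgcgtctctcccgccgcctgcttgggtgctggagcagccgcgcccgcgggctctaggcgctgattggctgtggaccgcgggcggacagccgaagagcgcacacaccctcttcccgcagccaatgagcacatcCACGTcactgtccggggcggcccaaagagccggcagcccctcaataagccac
Slc16a3 (chr11:120948817-120949066, plus strand): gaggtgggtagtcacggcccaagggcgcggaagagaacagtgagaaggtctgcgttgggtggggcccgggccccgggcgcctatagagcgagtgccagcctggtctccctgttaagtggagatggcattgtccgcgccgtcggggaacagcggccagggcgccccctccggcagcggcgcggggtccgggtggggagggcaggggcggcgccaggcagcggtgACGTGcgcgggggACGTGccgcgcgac
Ldha (chr7:46845554-46845803, plus strand): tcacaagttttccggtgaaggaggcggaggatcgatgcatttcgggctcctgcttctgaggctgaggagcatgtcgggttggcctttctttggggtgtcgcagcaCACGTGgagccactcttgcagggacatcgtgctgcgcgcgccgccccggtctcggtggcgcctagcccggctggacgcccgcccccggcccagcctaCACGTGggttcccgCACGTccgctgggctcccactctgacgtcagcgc
Ldhb (chr6:142507958-142508207, minus strand): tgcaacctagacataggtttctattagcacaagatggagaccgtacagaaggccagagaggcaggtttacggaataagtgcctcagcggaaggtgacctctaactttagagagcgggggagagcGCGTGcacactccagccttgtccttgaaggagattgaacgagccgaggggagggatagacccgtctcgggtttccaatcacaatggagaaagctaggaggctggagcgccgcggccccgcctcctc
Hk2 and Slc16a3 each held 2 matches to ACGTG. The printed window of Ldha held 2 E-boxes and 5 matches to ACGTG, 4 of them within the E-boxes, and Ldhb held a single GCGTG. The second window of Ldha, not printed, held no E-box and no ACGTG, and 1 GCGTG as in Ldhb. Windows were found for 39 of the 41 genes, 56 windows in all because some genes have several starts. The core ACGTG was present in 35.7% of these windows, in 22.8% of the 9852 windows of all genes tested and in 16.6% of all 32851 windows. GCGTG was present in 55.4%, 46.0% and 28.2% of the same windows and CACGTG in 10.7%, 8.67% and 6.02%. Their mean GC content was 59.3% in the set, 59.8% over genes tested and 53.2% over all. Among windows of genes that rose, 7 of 17 held ACGTG, against 13 of 37 windows of the set's genes that were not called or not tested. The other motifs went the other way. GCGTG was in 8 of the 17 and 21 of the 37 windows, and CACGTG in 1 of the 17 and 5 of the 37. A match is a description of the letters, not of binding.

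The pathway was among the abundant messages of these cells. The 41 genes together held 3.88% ± 0.134 of all TPM in Riok2hKO and 3.72% ± 0.0824 in WT, and the ranges of the 2 groups overlapped. Levels spanned from near 0 to 13174 TPM. The 8 genes above a mean of 1000 TPM were Gapdh, Ldha, Eno1, Pkm, Aldoa, Tpi1, Pgk1 and Pgam1. They held 91.4% ± 0.104 of the set's TPM in Riok2hKO and 91.4% ± 0.0652 in WT. The next in order, Gpi1, had 568 ± 25.7 TPM in Riok2hKO and 535 ± 12.4 TPM in WT. At the other end, Hk3, a hexokinase known from myeloid cells, was listed at 0 in 2 Riok2hKO and 2 WT libraries and did not exceed 0.13 TPM. Rpia, which makes ribose 5-phosphate from ribulose 5-phosphate, had 0.5 to 0.99 TPM in Riok2hKO and 0.53 to 1.16 TPM in WT. These 2 genes fell under the filter of at least 1 TPM in 5 libraries and were not tested.

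**Figure D1:**
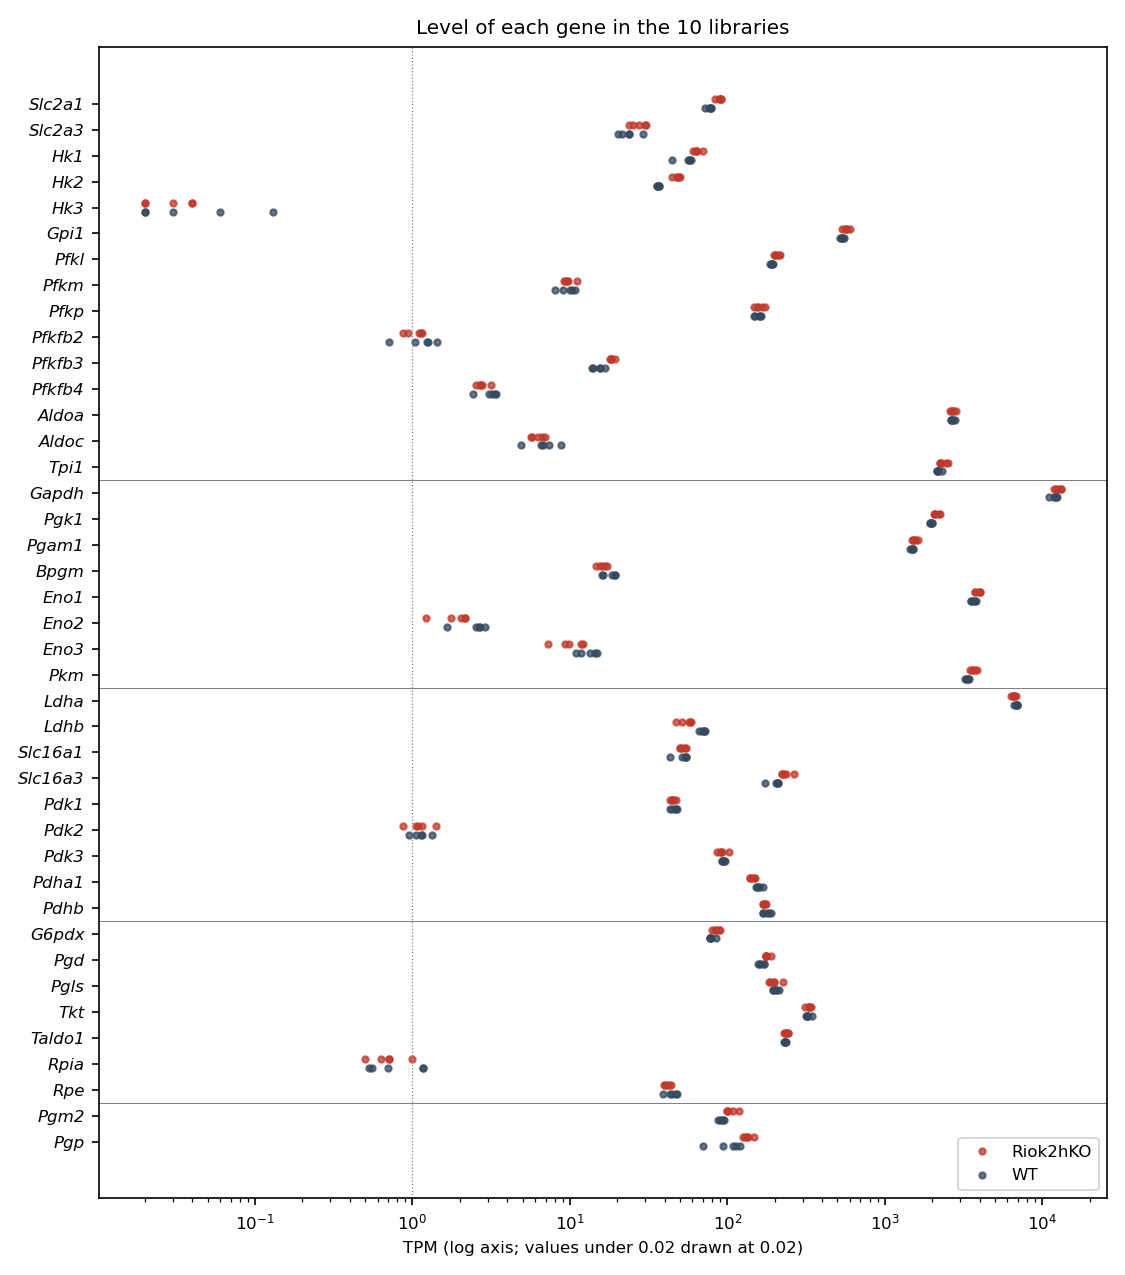
TPM of all 41 genes in the 10 libraries on a log axis, Riok2hKO above WT for each gene, in pathway order with lines between upper glycolysis, lower glycolysis, the fates of pyruvate, the pentose phosphate pathway and side reactions. The dotted line is at 1 TPM, the level used for the filter; Hk3 lies left of it in every library, its zeros drawn at the left edge of its points.

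Of the 39 genes tested, 12 rose in Riok2hKO, 2 fell and the remaining 25 were not called (limma on log2(TPM + 1), adjusted p under 0.05 over all 10332 genes tested, of which 17.1% passed in either direction). The list was drawn up with earlier results of these data known, so the shares that follow describe it and do not test it. The share that rose was 30.8%, where 9.58% of all genes tested rose. The share that fell was 5.13%, where 7.55% of all genes fell. In 11 genes every Riok2hKO library was above every WT library (28.2%, against 8.72% of all genes), and in 2 every one was below (against 5.87%); 14.6% of all genes had no overlap in either direction. The differences were small. The median log2 fold change was 0.027 over the 39 genes and -0.0060 over all genes tested, and the single values ran from -0.36 to 0.42. Upper glycolysis, from glucose uptake to triosephosphate isomerase, gave 5 rises among 14 tested genes, lower glycolysis 3 among 8, and the pentose phosphate pathway 1 among 6, with no fall in any of them. Among the 9 genes of lactate handling and pyruvate oxidation 1 rose and 2 fell. Leaving out Riok2hKO replicate 4 brought the counts to 5 rises and 1 fall, and leaving out WT replicate 2 or WT replicate 4 gave 8 rises. Without WT replicate 1, 13 rose and 2 fell. Alternatives named below are other pseudocounts, filters, scalings and variance models, added covariates, and each library left out. Gene positions are on mm10.

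**Figure D2:**
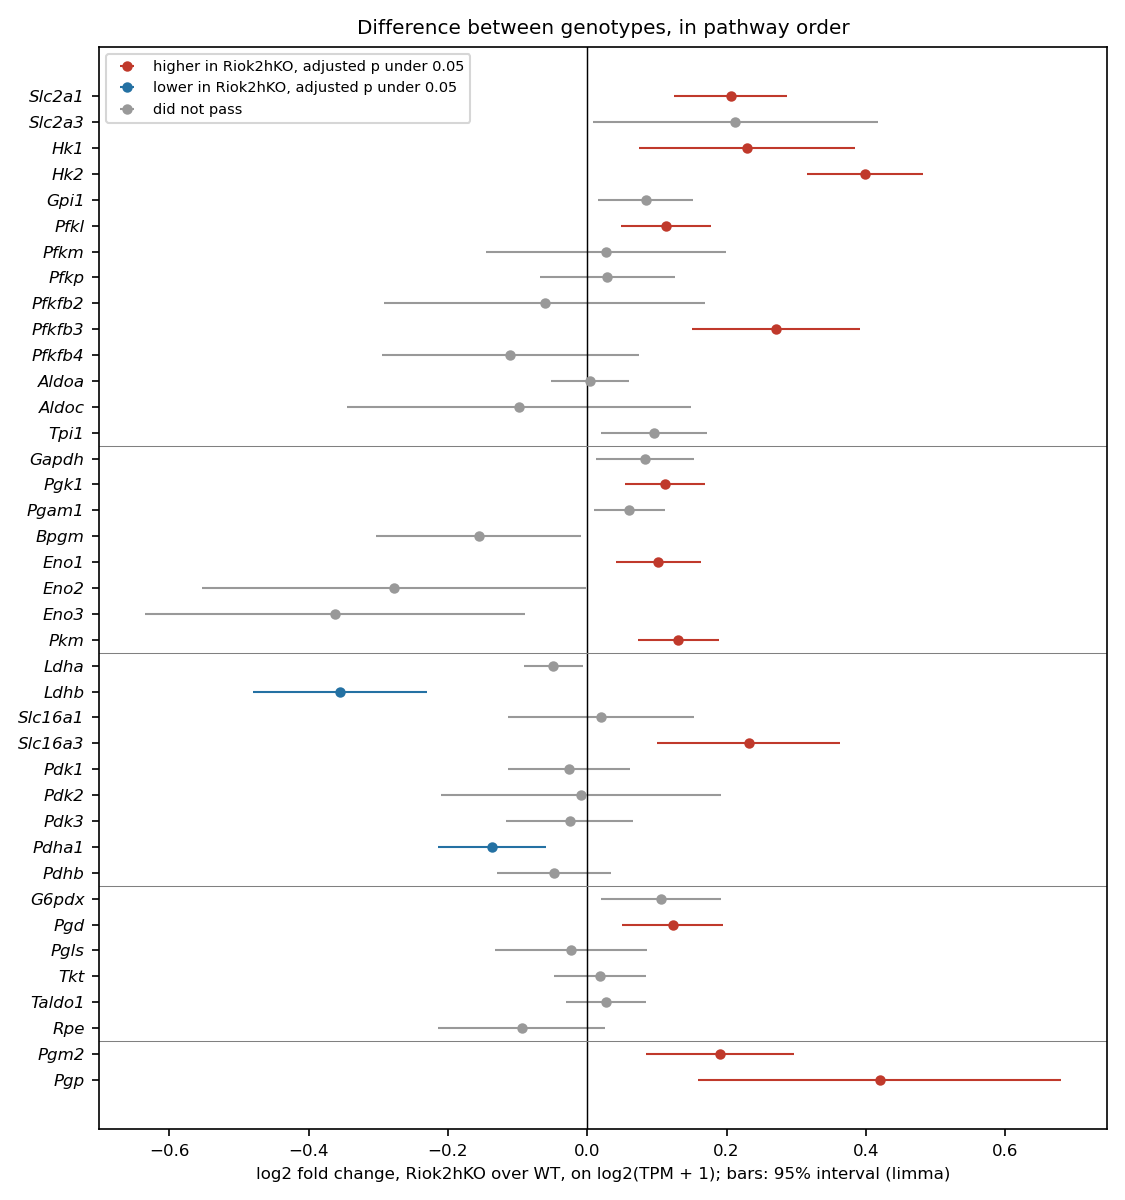
Log2 fold change (Riok2hKO over WT, on log2(TPM + 1)) of the 39 tested genes with its 95% interval from limma, in pathway order. The 12 genes that rose are red, the 2 that fell, Ldhb and Pdha1, are blue, and the intervals of Eno2, Eno3 and Pgp are the widest.

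Glucose enters through transporters of the SLC2 family. Slc2a1, which encodes GLUT1, the main transporter of activated T cells (chromosome 4, 119108745 to 119137330), had 88.2, 90.6, 83.3, 91.0 and 89.2 TPM in Riok2hKO, against 71.7, 78.2, 79.0, 77.5 and 76.6 TPM in WT. All Riok2hKO libraries lay above all WT libraries, and the mean was 15.5% higher (log2 fold change 0.21, SE 0.0370, limma adjusted p = 0.00327). Slc2a3, encoding the high-affinity transporter GLUT3, measured 27.4 ± 2.88 TPM in Riok2hKO and 23.6 ± 3.40 TPM in WT. Its groups overlapped and it did not pass (log2 fold change 0.21, limma adjusted p = 0.145), but it passed without WT replicate 3 (limma adjusted p = 0.0337, in a range of 0.0337 to 0.280 over all alternatives), which had 29.0 TPM. Slc2a1 held 76.4% ± 1.57 of the TPM of this pair in Riok2hKO and 76.6% ± 2.11 in WT.

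Hexokinases trap glucose in the cell by phosphorylating it. Hk2, the inducible form that binds mitochondria (chromosome 6, 82725025 to 82774454), had 49.4, 44.8, 47.7, 50.3 and 48.2 TPM in Riok2hKO, against 36.75, 35.7, 36.3, 36.6 and 35.7 TPM in WT. The WT libraries lay close together and every Riok2hKO library was above them. The mean was 32.8% higher, and the log2 fold change of 0.40 (SE 0.0382, 95% interval 0.32 to 0.48, limma adjusted p = 4.97e-05) had the smallest p of the set. Hk1, the more widely expressed form (chromosome 10, 62268855 to 62379920), had 63.8, 63.0, 63.5, 70.5 and 60.8 TPM in Riok2hKO, against 44.5, 56.9, 58.1, 56.3 and 59.0 TPM in WT. It was higher in all 5 Riok2hKO libraries (log2 fold change 0.23, SE 0.0714, limma adjusted p = 0.0455). This call ended without any 1 of the 5 Riok2hKO libraries or without WT replicate 2 or 4 (limma adjusted p = 0.0542 to 0.110). With all libraries kept it also ended without the filter on low values, without the mean-variance trend, with a replicate block and under some scalings (limma adjusted p = 0.0536 to 0.0951). Summed over the 3 hexokinase genes, Riok2hKO libraries had 107.8 to 120.8 TPM and WT libraries 81.3 to 94.7 TPM. Hk2 held 41.5% to 44.2% of that sum in Riok2hKO, against 37.7% to 39.4% in WT replicates 2 to 5 and 45.2% in WT replicate 1, where Hk1 was low.

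**Figure D3:**
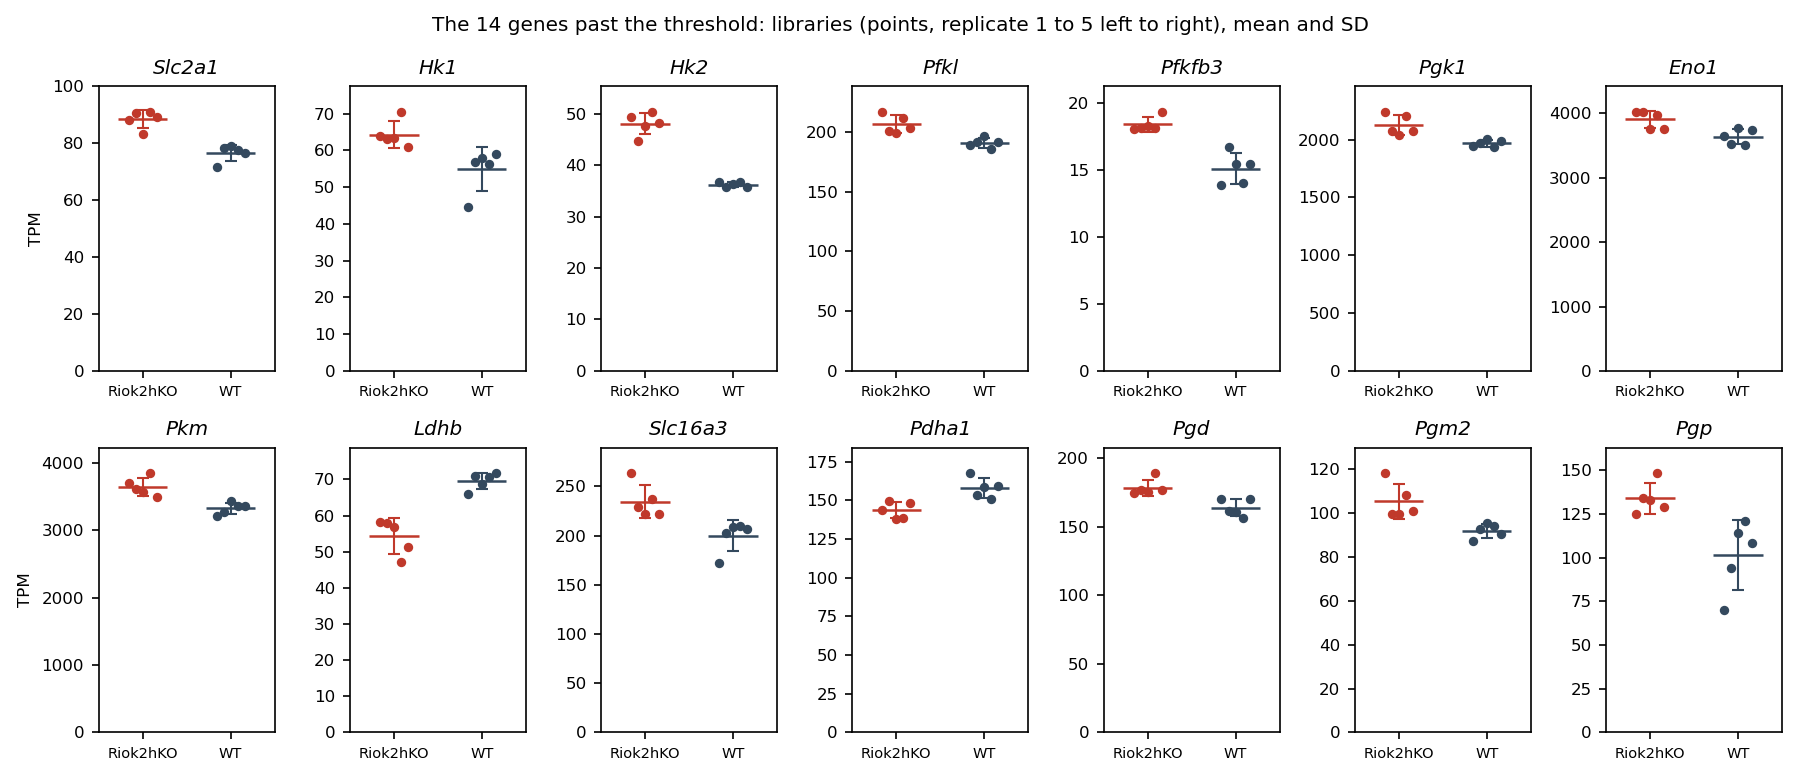
TPM of the 14 genes past the threshold in each library (points, replicate 1 to 5 from left to right), with the mean (line) and SD (bar) of 5 libraries; every axis starts at 0. Groups do not overlap except for Eno1, and the low point of WT in Hk1, Slc16a3 and Pgp is WT replicate 1.

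Glucose-6-phosphate isomerase sits at the branch point with the pentose phosphate pathway. Its gene Gpi1 had 568 ± 25.7 TPM in Riok2hKO and 535 ± 12.4 TPM in WT and did not pass (log2 fold change 0.08, limma adjusted p = 0.0864), but it passed without Riok2hKO replicate 3 (limma adjusted p = 0.0302, in a range of 0.0302 to 0.187 over all alternatives). Phosphofructokinase commits sugar to glycolysis. Pfkl, encoding the liver-type subunit (chromosome 10, 77986947 to 78009807), had 217, 201, 199, 212 and 203 TPM in Riok2hKO, against 189, 191, 196, 186 and 191 TPM in WT. It rose by 8.23%, with no overlap (log2 fold change 0.11, SE 0.0298, limma adjusted p = 0.0228), and lost its call without Riok2hKO replicate 4 or WT replicate 4 (limma adjusted p = 0.0593 and 0.0521, in a range of 0.0181 to 0.0708 over all alternatives). Pfkp, encoding the platelet-type subunit, had 159 ± 9.75 TPM in Riok2hKO and 156 ± 6.78 TPM in WT, with a 95% interval of the log2 fold change from -0.07 to 0.13. The muscle-type gene Pfkm had 9.78 ± 0.796 TPM in Riok2hKO and 9.60 ± 1.08 TPM in WT (limma adjusted p = 0.854).

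The enzymes encoded by the Pfkfb genes make or remove fructose 2,6-bisphosphate, the strongest known activator of phosphofructokinase. Pfkfb3, whose product favours its synthesis (chromosome 2, 11471430 to 11554071), had 18.05, 18.1, 18.3, 18.2 and 19.3 TPM in Riok2hKO, against 13.9, 16.7, 15.4, 14.01 and 15.5 TPM in WT. This was 21.8% higher with no overlap (log2 fold change 0.27, SE 0.0552, limma adjusted p = 0.00639). Pfkfb4 and Pfkfb2 were lower in level and did not pass. Pfkfb4 measured 2.77 ± 0.223 TPM in Riok2hKO and 3.08 ± 0.392 TPM in WT, and Pfkfb2 1.04 ± 0.127 TPM in Riok2hKO and 1.14 ± 0.277 TPM in WT. Pfkfb1, which is not one of the 41 genes, had 4.80 ± 0.627 TPM in Riok2hKO and 4.52 ± 0.448 TPM in WT. Pfkfb3 made up 65.2% to 72.1% of the TPM of all 4 Pfkfb genes in Riok2hKO and 60.7% to 65.9% in WT, which overlapped, with 4 of 5 Riok2hKO libraries above the highest WT library. Of the 3 genes without Pfkfb1 its share was 81.95% to 84.9% in Riok2hKO and 77.3% to 79.2% in WT, with no overlap.

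Aldolase and triosephosphate isomerase complete the upper part. Aldoa had 2725, 2692, 2573, 2817 and 2642 TPM in Riok2hKO, against 2694, 2618, 2799, 2652 and 2645 TPM in WT. The groups lay over each other, and the 95% interval of the log2 fold change was -0.05 to 0.06 (limma adjusted p = 0.932). Its minor relative Aldoc had 6.26 ± 0.554 TPM in Riok2hKO and 6.85 ± 1.38 TPM in WT. Tpi1 had 2342 ± 130.4 TPM in Riok2hKO and 2190.0 ± 63.7 TPM in WT (log2 fold change 0.10, limma adjusted p = 0.0801). It did not pass, with 2 of 5 Riok2hKO libraries above the highest WT library.

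In the lower part, where ATP is regained, Gapdh was the most abundant message of the set. It measured 13061, 12594, 11942, 13174 and 12214 TPM in Riok2hKO, against 11073, 11893, 12365, 12171 and 11964 TPM in WT. The ranges overlapped and the gene did not pass (log2 fold change 0.08, 95% interval 0.01 to 0.15, limma adjusted p = 0.104). Pgk1, the first ATP-forming step (chromosome X, 106187100 to 106203699), had 2239, 2076, 2039, 2202 and 2072 TPM in Riok2hKO, against 1940.2, 1968, 2004, 1935 and 1986 TPM in WT. Here no library overlapped and the mean was 8.08% higher (log2 fold change 0.11, SE 0.0263, limma adjusted p = 0.0133). Pgam1, the mutase that follows, had 1550.2 ± 47.9 TPM in Riok2hKO and 1486 ± 27.3 TPM in WT (limma adjusted p = 0.0961). Bpgm, whose product makes the side product 2,3-bisphosphoglycerate, had 15.96 ± 1.00 TPM in Riok2hKO and 17.9 ± 1.66 TPM in WT (limma adjusted p = 0.137). With a trend on transcript GC content and length removed from each library, an alternative chosen after seeing the data, Tpi1, Gapdh and Pgam1 also passed (limma adjusted p = 0.0279, 0.0350 and 0.0247), while over all alternatives their highest values were 0.253, 1 and 0.264.

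Enolase yields phosphoenolpyruvate. Eno1, the ubiquitous form (chromosome 4, 150236708 to 150248879), had 4023, 4017, 3753, 3979 and 3754 TPM in Riok2hKO, against 3643, 3518, 3767, 3514 and 3747 TPM in WT. It rose by 7.35% although the ranges overlapped, with 3 of 5 Riok2hKO libraries above the highest WT library (log2 fold change 0.10, SE 0.0280, limma adjusted p = 0.0268). The call was lost when any 1 of Riok2hKO replicates 1, 2 and 4 or of WT replicates 2 and 4 was left out (limma adjusted p = 0.0602 to 0.0669). It was also lost without the filter on low values, without the mean-variance trend and with a replicate block (limma adjusted p = 0.0803, 0.108 and 0.0788). Reads of Eno1 are shared with Gm5506, a near-identical intronless copy, at 527 ± 127 TPM in Riok2hKO and 413 ± 67.7 TPM in WT, so the split between them is uncertain. Their sum was 4152 to 4702 TPM in Riok2hKO and 3980.2 to 4157 TPM in WT, with a log2 fold change of 0.13 (limma adjusted p = 0.0110). The neuronal and muscle forms, Eno2 and Eno3, were low. Eno3 had 10.0 ± 1.98 TPM in Riok2hKO and 13.1 ± 1.73 TPM in WT (log2 fold change -0.36, limma adjusted p = 0.0673, 0.0493 without Riok2hKO replicate 3 and 0.0330 to 0.142 over all alternatives). Eno2 had 1.86 ± 0.394 TPM in Riok2hKO and 2.47 ± 0.475 TPM in WT (log2 fold change -0.28, limma adjusted p = 0.157, 0.0474 without WT replicate 5 and 0.0474 to 0.304 over all alternatives). Eno1 held 99.63% to 99.79% of enolase TPM in Riok2hKO and 99.51% to 99.61% in WT, with no overlap.

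Pyruvate kinase closes the pathway. Pkm, whose transcripts encode both the M1 and M2 forms and are not separated here (chromosome 9, 59656576 to 59679372), had 3709, 3613, 3564, 3846 and 3492 TPM in Riok2hKO, against 3209, 3274, 3431, 3365 and 3359 TPM in WT. It was 9.54% higher in mean, every Riok2hKO library above every WT library (log2 fold change 0.13, SE 0.0265, limma adjusted p = 0.00622). Among the 8 genes above 1000 TPM, Pkm, Pgk1 and Eno1 rose, and the log2 fold changes of the 8 ran from -0.05 for Ldha to 0.13 for Pkm.

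Lactate dehydrogenase turns pyruvate into lactate and back. Its subunits come from Ldha, the form favoured in glycolytic tissue, and Ldhb, the form favoured in heart. Ldha measured 6785, 6649, 6316, 6648 and 6529.8 TPM in Riok2hKO, against 6759, 6636, 6904, 6873 and 6877 TPM in WT. Every Riok2hKO library was below the WT mean, but the ranges overlapped and the gene did not pass (log2 fold change -0.05, 95% interval -0.09 to -0.01, limma adjusted p = 0.110). Ldhb (chromosome 6, 142490249 to 142507957) had 58.4, 58.1, 56.8, 47.3 and 51.2 TPM in Riok2hKO, against 66.0, 70.9, 68.8, 70.6 and 71.7 TPM in WT. It fell by 21.9%, with all 5 Riok2hKO libraries below all WT libraries (log2 fold change -0.36, SE 0.0573, limma adjusted p = 0.00173). Ldhb was a minor part of the pair, 0.706% to 0.891% of their TPM in Riok2hKO and 0.967% to 1.06% in WT.

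Monocarboxylate transporters carry lactate across the membrane. Slc16a3, encoding MCT4, the form known for lactate export from glycolytic cells (chromosome 11, 120948484 to 120959000), had 263, 229, 222, 237 and 222 TPM in Riok2hKO, against 172, 202, 209, 209 and 206 TPM in WT. It rose by 17.4% with no overlap (log2 fold change 0.23, SE 0.0604, limma adjusted p = 0.0216). WT replicate 1 was low, and without it the log2 fold change was 0.18 and still passed (limma adjusted p = 0.0168). Without Riok2hKO replicate 4 the limma adjusted p was 0.0503, and it ran from 0.00671 to 0.0669 over all alternatives. Slc16a1, encoding MCT1, had 52.1 ± 2.04 TPM in Riok2hKO and 51.6 ± 4.82 TPM in WT (limma adjusted p = 0.865). The share of Slc16a3 in the pair was 80.1% to 84.0% in Riok2hKO and 78.7% to 80.1% in WT, and 4 of 5 Riok2hKO libraries were above the highest WT library.

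**Figure D4:**
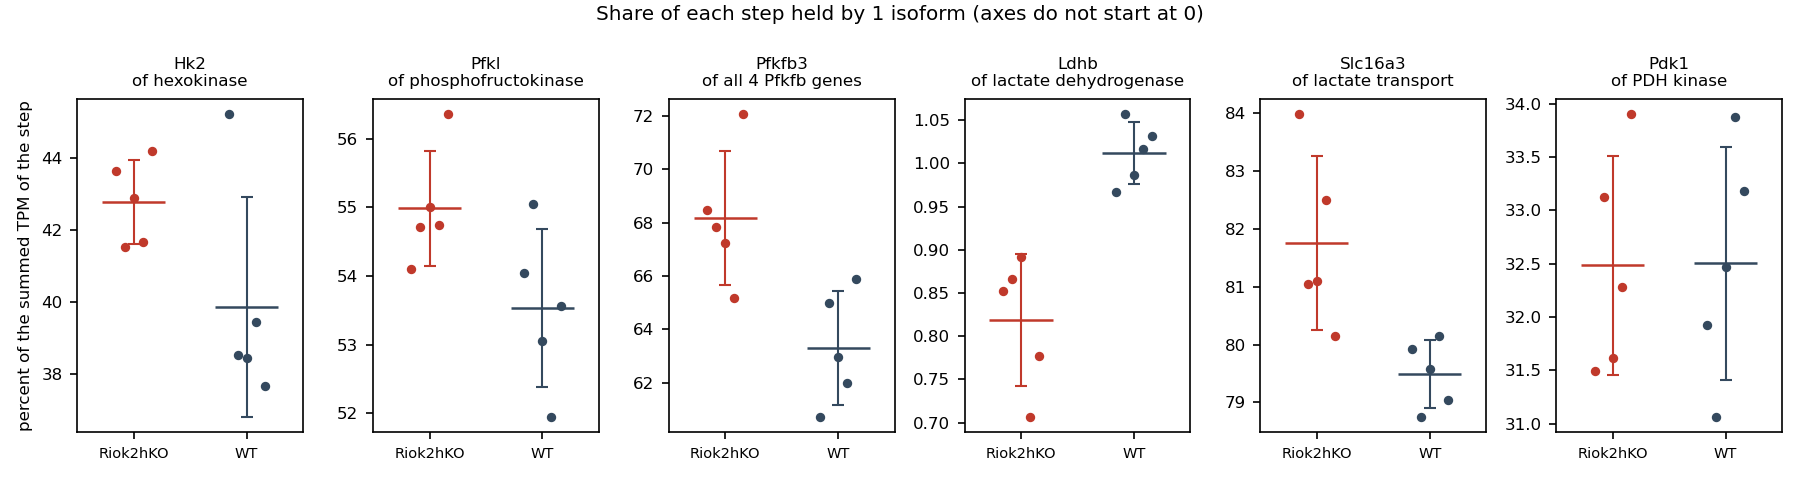
Share held by 1 gene in the summed TPM of the step's genes among the 41 (for Pfkfb3, with Pfkfb1 added) in each library (points, replicate 1 to 5 from left to right), with mean and SD of 5 libraries; the axes do not start at 0. Groups do not overlap for Ldhb (0.706% to 0.891% in Riok2hKO, 0.967% to 1.06% in WT) and overlap for Hk2, Pfkl, Pfkfb3, Slc16a3 and Pdk1.

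Pyruvate dehydrogenase carries pyruvate into mitochondrial oxidation and is switched off by its kinases. Pdha1, an X-linked gene for its E1 alpha subunit (chromosome X, 160122219 to 160138430), had 144, 149, 138, 139 and 148 TPM in Riok2hKO, against 167, 153, 159, 151 and 159.5 TPM in WT. It fell by 9.08%, again with no overlap (log2 fold change -0.14, SE 0.0356, limma adjusted p = 0.0217), and lost its call without Riok2hKO replicate 3 or 4 (limma adjusted p = 0.0551 and 0.0569, in a range of 0.00996 to 0.0569 over all alternatives). Pdhb, for the E1 beta subunit, had 172 ± 3.65 TPM in Riok2hKO and 178 ± 10.0 TPM in WT (limma adjusted p = 0.426). The kinases showed no call. Pdk3, the most abundant of them, had 101.8, 89.9, 91.65, 92.8 and 86.1 TPM in Riok2hKO, against 93.2, 95.1, 97.2, 92.1 and 92.4 TPM in WT, with a 95% interval of -0.12 to 0.07. Pdk1, a known HIF-1 target, had 45.0 ± 1.56 TPM in Riok2hKO and 45.8 ± 1.86 TPM in WT, with an interval of -0.11 to 0.06. Pdk2 had 1.12 ± 0.199 TPM in Riok2hKO and 1.13 ± 0.143 TPM in WT.

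In the oxidative arm of the pentose phosphate pathway, Pgd, encoding 6-phosphogluconate dehydrogenase, the second NADPH-forming step (chromosome 4, 149149991 to 149166705), had 175, 177, 175.5, 189 and 177 TPM in Riok2hKO, against 170.4, 161.5, 161, 157 and 170.5 TPM in WT. It rose by 8.93% with no overlap (log2 fold change 0.12, SE 0.0334, limma adjusted p = 0.0258). Leaving out Riok2hKO replicate 4, or any 1 of WT replicates 2 to 4, ended the call (limma adjusted p = 0.0518 to 0.0628). So did dropping the mean-variance trend, adding detected genes as a covariate or adding a replicate block (limma adjusted p = 0.0626, 0.0561 and 0.0749). G6pdx, the entry enzyme, had 79.65, 88.05, 84.6, 83.6 and 89.9 TPM in Riok2hKO, against 84.05, 77.1, 77.4, 78.8 and 77.8 TPM in WT. It did not pass (log2 fold change 0.11, limma adjusted p = 0.0877), and WT replicate 1 was its one high WT library; it passed without that library (limma adjusted p = 0.0359) and without Riok2hKO replicate 1 (limma adjusted p = 0.0447), in a range of 0.0359 to 0.184 over all alternatives. Pgls, the lactonase between them, had 198 ± 16.3 TPM in Riok2hKO and 201 ± 7.65 TPM in WT (limma adjusted p = 0.793). In the non-oxidative arm no gene passed. Tkt, encoding transketolase, had 328 ± 10.1 TPM in Riok2hKO and 324 ± 11.0 TPM in WT, with a 95% interval of -0.05 to 0.08. Taldo1, encoding transaldolase, had 236 ± 7.26 TPM in Riok2hKO and 232 ± 3.28 TPM in WT, with an interval of -0.03 to 0.08. Rpe, the epimerase, had 41.5 ± 1.69 TPM in Riok2hKO and 44.5 ± 3.53 TPM in WT (limma adjusted p = 0.269).

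Both genes of side reactions rose. Pgp encodes a phosphatase that clears phosphoglycolate and other toxic side products of glycolytic enzymes (chromosome 17, 24470426 to 24473110). It had 125, 134, 133, 148 and 129 TPM in Riok2hKO, against 69.98, 94.3, 114, 121 and 108 TPM in WT, with no overlap and the largest log2 fold change of the set (0.42, SE 0.120, limma adjusted p = 0.0321). WT replicate 1 was the lowest, and without it the log2 fold change was 0.29 (limma adjusted p = 0.00887). It missed the threshold on leaving out any 1 of Riok2hKO replicates 2 to 5, or WT replicate 2 (limma adjusted p = 0.0521 to 0.0793). It also missed it without the filter on low values and without the mean-variance trend (limma adjusted p = 0.0792 and 0.0562). The row named Pgm2 stands for a phosphoglucomutase gene. It had 118, 99.5, 99.6, 108 and 100.9 TPM in Riok2hKO, against 87.3, 92.7, 95.3, 94.05 and 90.2 TPM in WT. It was 14.5% higher with no overlap (log2 fold change 0.19, SE 0.0487, limma adjusted p = 0.0195; 0.0503 without Riok2hKO replicate 4 and 0.0137 to 0.0513 over all alternatives). RefSeq lists Pgm2 as a former name of the gene now called Pgm1 and the reverse, so which of these 2 genes the row measures is uncertain.

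A second list of 63 further genes of carbohydrate metabolism, also drawn up with earlier results of these data known, was read for comparison. Among the 37 that were tested, 7 rose (18.9%), 2 fell (5.41%) and 28 were not called, with a median log2 fold change of -0.02; of the 63 symbols 62 were in the table. Over all genes tested 9.58% rose and 7.55% fell, with a median of -0.0060, so the share that fell was near that of all genes. Those that rose came from different parts of the network. Emb encodes embigin, a membrane partner of monocarboxylate transporters, and had 271 ± 8.86 TPM in Riok2hKO and 219.9 ± 11.0 TPM in WT (log2 fold change 0.30, limma adjusted p = 0.000271). Slc2a6, encoding GLUT6, had 25.7 ± 1.85 TPM in Riok2hKO and 20.7 ± 2.36 TPM in WT, and Gpd2, the mitochondrial arm of the glycerol phosphate shuttle, 14.9 ± 0.398 TPM in Riok2hKO and 12.7 ± 0.655 TPM in WT. H6pd, the form of glucose-6-phosphate dehydrogenase in the endoplasmic reticulum, had 5.39 ± 0.241 TPM in Riok2hKO and 4.16 ± 0.547 TPM in WT. The remaining rises were Pcx (pyruvate carboxylase, log2 fold change 0.43), Gbe1 (glycogen branching enzyme, 0.29) and Pdp2 (a phosphatase that reactivates pyruvate dehydrogenase, 0.19). Pcx had 10.1 ± 1.68 TPM in Riok2hKO and 7.23 ± 1.18 TPM in WT (limma adjusted p = 0.0238). The groups overlapped for Pcx and Gbe1, with 4 and 3 Riok2hKO libraries above the highest WT library. They did not overlap for the other rises. Galm, encoding galactose mutarotase, fell to 8.96 ± 0.684 TPM in Riok2hKO, against 12.3 ± 0.748 TPM in WT (log2 fold change -0.42, limma adjusted p = 0.00118). Prpsap1, which encodes a partner of phosphoribosyl pyrophosphate synthetase, fell to 164 ± 3.28 TPM in Riok2hKO, against 181 ± 6.60 TPM in WT (log2 fold change -0.14, limma adjusted p = 0.0103).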

How the data were processed

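Reads (unstranded SMART-seq2 libraries) were aligned to the mm10 transcriptome with Bowtie and abundances estimated with RSEM by the authors, per the labels' protocols; RSEM 1.2.8 comes from the submitters' processing notes while Bowtie's version was not given in the sources used here. The deposited values are TPM, which keep no depth, so precision rests on the spread between libraries, and shares of a fixed total are linked to each other. Reads that fit near-identical copies are apportioned by RSEM's model. Of 23420 rows, 27 whose symbol had become a date (0.107% to 0.114% of TPM) were left out.

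Libraries were grouped by their titles. Values were tested as log2(TPM + 1), for genes reaching 1 TPM in 5 or more of the 10 libraries, with limma 3.58.1 in R 4.3.3 (mean-variance trend, term for genotype, Benjamini-Hochberg over all 10332 genes). Fold changes are on that scale, which understates changes of low genes; percent differences are of mean TPM. All adjusted p-values are limma's. The members and lists were chosen with earlier results of these data known. Every gene of the list is reported; values per library are given for genes past the threshold and for the most abundant gene of glucose uptake, lactate export, hexokinase, phosphofructokinase, phosphofructokinase-2, aldolase, enolase, lactate dehydrogenase and pyruvate dehydrogenase kinase, and G6pdx and Gapdh were added to these after their values were seen. The test was checked on simulated data, with genes drawn independently and changes of 0.5 or 1 log2 units added to 200 of them. It found 87% and 99% of these, and 4.12% of its calls were false. Changes under 0.5, as in every gene of the set, were not simulated. The share of Pfkfb3 with Pfkfb1 included was computed after seeing the data. Alternatives covered the pseudocount, filter, scaling, variance model, library weights, detected genes, replicate number and each library left out; removal of a GC and length trend, the sum of Eno1 and Gm5506, and date rows kept in were chosen after seeing the data. Coordinates and promoters are RefSeq's on GRCm38.p6, the assembly of mm10; 40 of 41 genes were given coordinates, and Pgm2 was left out. Python 3.11.15 and matplotlib 3.10.9 made the figures.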

Additional observations from a re-analysis of the deposited data

Results flagged for a closer look

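In 11 of 80 groups of 5 libraries, 1 library lay far from the other 4 relative to the range of its group; chance alone flags about 1 in 20 groups. WT replicate 1 accounted for 5 of them. In that library Hk1 was at 44.5 TPM (56.3 to 59.0 TPM in the other WT libraries), Slc16a1 at 43.2 TPM (51.8 to 54.7 TPM) and Slc16a3 at 172 TPM (202 to 209 TPM). G6pdx was high there at 84.05 TPM (77.1 to 78.8 TPM), as was Taldo1 at 237 TPM (228 to 230.9 TPM). WT replicate 3 was high in Tpi1 at 2300.4 TPM (2139.5 to 2178 TPM) and low in Pgam1 at 1439 TPM (1490.2 to 1508 TPM), and WT replicate 5 was low in Eno2 at 1.65 TPM (2.53 to 2.87 TPM). In Riok2hKO, Pfkm was high in replicate 1 at 11.15 TPM (9.14 to 9.71 TPM), Pgd in replicate 4 at 189 TPM (174.9 to 177 TPM) and Pfkfb3 in replicate 5 at 19.3 TPM (18.05 to 18.3 TPM).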

How the results depend on the processing

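Of the 14 genes past the threshold, 5 (Slc2a1, Hk2, Pfkfb3, Pkm and Ldhb) passed under every alternative, Pgk1 missed it under 1 (0.0723 without the mean-variance trend in limma), and none of the 14 changed sign. The count of genes that rose was 6, and of those that fell 1, without the mean-variance trend. With 1 library left out it ran from 5 to 13 for rises and from 1 to 3 for falls; with the replicate number as a block 6 rose and 3 fell, and under the remaining alternatives rises numbered 8 to 15. Total calls over all genes ran from 1199 to 1852. Deviations of same-numbered libraries from their group means had r of -0.034 to 0.068 across genes. Differently numbered libraries were not compared in this way, so whether the replicate numbers pair the samples was not tested. Among genes that were not called, 6 changed sign, all with log2 fold changes near 0. Pfkm was -0.0347 with quantile normalization and -0.0281 to 0.0656 with 1 library left out. Aldoa was -0.00235 without ribosomal protein genes and -0.00674 with detected genes as a covariate, and -0.0127 to 0.020004 with 1 library left out. Slc16a1 was -0.00838 with library weights and -0.0419 to 0.0415 with 1 left out. With 1 library left out Pfkp ran from -0.000601 to 0.0542, Pdk2 from -0.0585 to 0.0345 and Pgls from -0.0706 to 0.00192. The cause was not tested. Quantile normalization sets Gapdh to 0, since its rank is the same in every library. Depth is unknown, so for members of the set under a mean of 10 TPM, none of which was called, counting error cannot be separated from other spread.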
